A study of Mus musculus with 17 samples.

Results

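Collagen VI and other collagens that do not build the thick banded fibrils were examined as 9 genes in mouse lung cultures labelled as fibroblasts: Col6a1, Col6a2, Col6a3, Col8a1, Col12a1, Col14a1, Col15a1, Col16a1 and Col18a1. The members were taken by gene name, and all 9 were found among the 55421 genes of the count table and passed the filter on low counts (more than 10 CPM, a count scaled to the size of its library, in at least 2 libraries), as did 10481 genes in all. Each of the 17 libraries came from the lung of 1 mouse, and the cells were grown in medium with 10% serum and passaged once before total RNA was sequenced. Every mouse carried the floxed alleles and the transgene Ephb4f/f; Col1a2-CreERT2, so that the Cre recombinase is driven by the promoter of a fibrillar collagen gene. At 4 weeks of age the mice received 4-hydroxytamoxifen, which removes Ephb4 in the Ephb4 CKO groups, or corn oil, which makes the Ephb4 control groups. At 6 weeks of age they received bleomycin, which damages lung tissue and leads to scarring, or phosphate-buffered saline (PBS), and lungs were taken on day 14. The groups were Ephb4 control with PBS (4 mice), Ephb4 control with bleomycin (4), Ephb4 CKO with PBS (5) and Ephb4 CKO with bleomycin (4). Mice are numbered here within their group.

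Collagen VI is a heterotrimer of the α1, α2 and α3 chains that forms beaded microfilaments around cells and is a regular product of fibroblasts. Collagen VIII forms hexagonal networks and is known from vessel walls and from tissue remodeling. Collagens XII, XIV and XVI belong to the FACITs (fibril-associated collagens with interrupted triple helices), which sit on the surface of collagen fibrils. Collagens XV and XVIII are multiplexins of basement membranes, and the C-terminal end of collagen XVIII is released as endostatin.

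The libraries held between 66540022 and 120554468 counts (median 93075927). Ephb4, the gene deleted in the CKO mice, lay between 5.00 and 14.2 CPM in the CKO bleomycin mice and between 13.3 and 66.0 CPM in the control bleomycin mice, and between 4.06 and 23.9 CPM in the CKO PBS mice against 2.35 to 33.9 CPM in the control PBS mice. These ranges overlapped, and edgeR's quasi-likelihood test gave an adjusted p of 0.220 after bleomycin for Ephb4. After bleomycin the overlap came only from control bleomycin mouse 2 (13.3 CPM) and CKO bleomycin mouse 1 (14.2 CPM). The other control bleomycin mice lay between 35.8 and 66.0 CPM, and the other CKO bleomycin mice between 5.00 and 10.3 CPM. In 3 libraries (control bleomycin mouse 2 and CKO bleomycin mice 1 and 2) the genes of the sex chromosomes went against the labelled sex. Both libraries of the Ephb4 overlap are among these 3, and whether their labels are right was not tested. The labelled cell type was fibroblast, but the summed level of the 19 macrophage markers (for example Lyz2, which encodes lysozyme, and Cd68) ran from 1301 to 45210 CPM. The 13 fibroblast markers, among them the receptor genes Pdgfra and Pdgfrb, summed to between 9.25 and 958.9 CPM, and no marker of either list was at 0 in every library. In these bulk cultures fewer fibroblasts and less collagen RNA per fibroblast cannot be told apart.

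Col6a1 and Col6a2, which encode the α1 and α2 chains, lie close together on the minus strand of chromosome 10 (GRCm38, 76708792 to 76726168 and 76595762 to 76623630). Col6a3, for the α3 chain, is on the minus strand of chromosome 1 (90765923 to 90843971) and shares sequence on the same strand with the predicted gene Gm36970, so its count could include reads of that gene. Col6a1 levels were 6.98, 5.15, 197 and 0.751 CPM in the control PBS mice, 126, 168, 34.8 and 36.2 CPM in the control bleomycin mice, 0.383, 4.57, 39.1, 2.30 and 3.73 CPM in the CKO PBS mice, and 10.6, 59.3, 21.5 and 2.07 CPM in the CKO bleomycin mice. Control PBS mouse 3 was above every bleomycin mouse, and the other 3 control PBS mice were below all 4 control bleomycin mice. Col6a2 gave 1.51, 0.707, 83.9 and 0.457 CPM in control PBS, 55.1, 79.8, 8.60 and 9.57 CPM in control bleomycin, 0.0741, 0.636, 12.3, 0.447 and 1.76 CPM in CKO PBS, and 3.60, 15.7, 3.51 and 0.786 CPM in CKO bleomycin mice. The same mice were high as for Col6a1. Col6a3 gave 4.70, 1.90, 323 and 1.09 CPM in control PBS, 200.0, 405, 86.0 and 79.9 CPM in control bleomycin, 0.618, 1.14, 35.4, 1.34 and 10.0 CPM in CKO PBS, and 36.8, 58.1, 5.58 and 1.21 CPM in CKO bleomycin mice. For Col6a3 the control bleomycin and CKO bleomycin groups did not overlap.

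**Figure D1:**
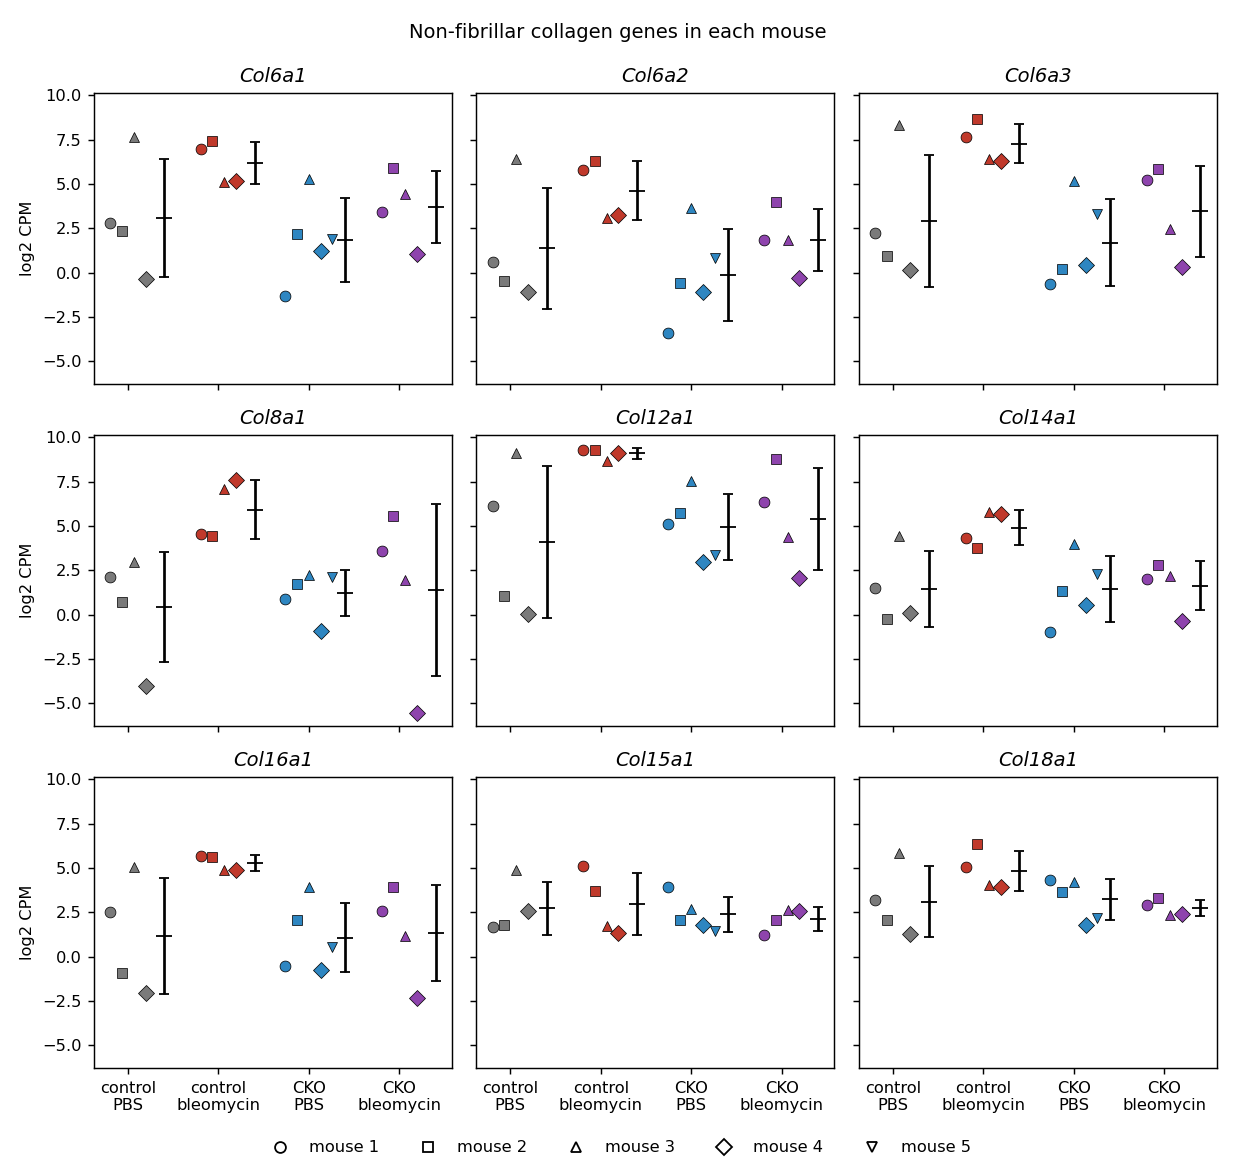
Level of each of the 9 collagen genes in each of the 17 mice, as log2 CPM (prior count of 2), with the mean and SD of each group to the right of its points. Control PBS mouse 3 stands above the other 3 control PBS mice for all 9 genes, and Col8a1 and Col14a1 are higher in control bleomycin mice 3 and 4, where the collagen VI genes are lower.

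Across the 17 libraries the collagen VI chain genes followed each other closely, with Spearman correlations of the log2 CPM of 0.958 between Col6a1 and Col6a2, 0.946 between Col6a2 and Col6a3 and 0.924 between Col6a1 and Col6a3. These are descriptions over 17 libraries that also share their cell mixture. Per kb of transcript, Col6a2 was below Col6a1 in 17 of 17 libraries, with a ratio of 0.142 to 0.631 and a median of 0.275. The length was that of the transcript with the longest coding sequence, and the ratios depend on that choice. For Col6a2 this was 3949 bp, while all its exons together cover 8326 bp. Some libraries held few counts, such as 6 for Col6a2 in CKO PBS mouse 1. Col6a3 was below Col6a1 in 14 of 17 libraries, with a median ratio of 0.587 and a range of 0.101 to 1.41. In the control bleomycin mice the Col6a3 to Col6a1 ratio per kb was 0.644, 0.977, 1.00 and 0.895, and in the control PBS mice it was 0.273, 0.150, 0.664 and 0.587. The chains combine in equal numbers in the protein, whereas the RNA levels per kb were unequal in most libraries.

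**Figure D2:**
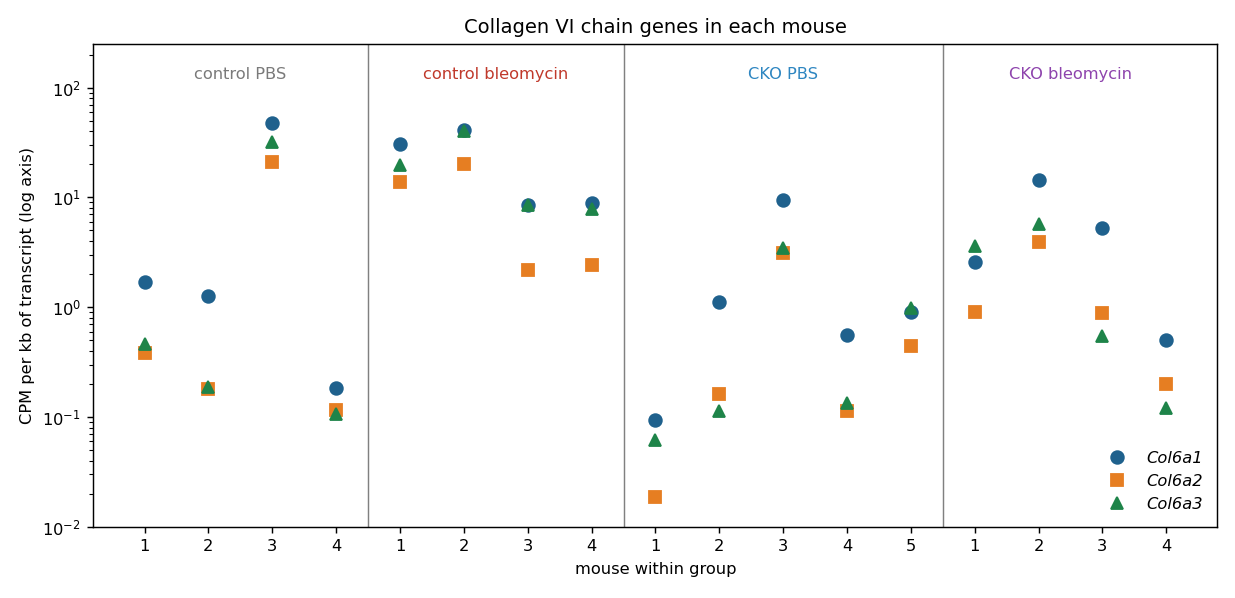
Level of the genes of the 3 collagen VI chains in each mouse, as CPM per kb of transcript on a log axis, with the groups separated by lines. Col6a2 lies below Col6a1 in all 17 libraries, and Col6a3 lies close to Col6a1 in control bleomycin mice 2 to 4.

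The promoter windows of the collagen VI genes and of Col8a1 are shown because the first 3 genes followed each other across mice while Col8a1 went apart from them in the control bleomycin group. Each runs from 250 bases before to 50 bases after the start site in RefSeq (GRCm38.p6), 5′ to 3′ along the gene. Capitals mark the GC box GGGCGG and the AP-1 motif TGANTCA on either strand, which do not overlap here.
Col6a1, chr10:76725995-76726294, minus strand: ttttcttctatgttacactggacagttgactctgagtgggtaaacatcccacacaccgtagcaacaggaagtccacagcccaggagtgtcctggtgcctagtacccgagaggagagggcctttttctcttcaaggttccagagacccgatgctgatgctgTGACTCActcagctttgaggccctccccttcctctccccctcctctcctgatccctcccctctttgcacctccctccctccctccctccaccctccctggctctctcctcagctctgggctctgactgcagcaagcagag
Col6a2, chr10:76623581-76623880, minus strand: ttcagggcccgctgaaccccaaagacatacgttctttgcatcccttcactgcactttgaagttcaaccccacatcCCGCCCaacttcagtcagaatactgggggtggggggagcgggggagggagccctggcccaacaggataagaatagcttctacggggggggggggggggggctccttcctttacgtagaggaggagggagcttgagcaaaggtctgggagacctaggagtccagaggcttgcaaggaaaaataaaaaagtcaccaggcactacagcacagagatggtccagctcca
Col6a3, chr1:90843922-90844221, minus strand: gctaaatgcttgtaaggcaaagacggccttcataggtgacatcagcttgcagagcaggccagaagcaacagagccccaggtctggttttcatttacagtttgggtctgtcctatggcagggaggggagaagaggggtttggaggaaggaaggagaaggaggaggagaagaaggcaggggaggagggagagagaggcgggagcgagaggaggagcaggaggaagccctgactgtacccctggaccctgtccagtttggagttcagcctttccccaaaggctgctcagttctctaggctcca
Col8a1, chr16:57754688-57754987, minus strand: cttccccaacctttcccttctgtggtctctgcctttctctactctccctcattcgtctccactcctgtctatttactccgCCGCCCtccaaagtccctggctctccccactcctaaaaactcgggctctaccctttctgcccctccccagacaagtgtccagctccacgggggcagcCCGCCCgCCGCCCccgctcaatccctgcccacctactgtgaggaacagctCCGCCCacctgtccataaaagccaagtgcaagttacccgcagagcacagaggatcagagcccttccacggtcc
Col6a2 has a second window, around a start site 226 bases further along the gene, and the window printed is the one at the annotated start of the gene. The Col8a1 window held the GC box at 4 positions, the printed Col6a2 window at 1 and the second Col6a2 window (64.3% GC) at 3, the Col6a1 window held the AP-1 motif at 1 and the Col6a3 window held neither. Of all 32851 windows of the same 300 bases, 35.7% held the GC box and 7.81% the AP-1 motif. RefSeq windows were found for 7 of the 9 members (9 windows, since Col6a2 and Col18a1 have 2 each), of which 5 held the GC box, 1 the AP-1 motif and none the TATA box TATAAA (13.6% of all windows). CCAAT was in 2 of the 9 (37.4% of all), CAGAC in 5 (49.6%) and GGAATG in 2 (14.7%). These matches describe the letters of the windows and not sites in use. GC content was 57.3% for Col6a1, 56.7% for the printed window of Col6a2, 56.3% for Col6a3 and 60.3% for Col8a1, against a median of 52.7% over all windows.

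Col8a1 encodes the α1 chain of collagen VIII and has 4 exons on the minus strand of chromosome 16 (57624258 to 57754737). Its levels were 4.33, 1.62, 7.67 and 0.0406 CPM in control PBS mice, 23.4, 21.5, 136 and 196 CPM in control bleomycin mice, 1.83, 3.30, 4.74, 0.503 and 4.27 CPM in CKO PBS mice, and 12.1, 47.5, 3.83 and 0 CPM in CKO bleomycin mice. Every control bleomycin mouse was above every PBS mouse of either genotype, and control bleomycin mice 3 and 4 were the highest of all 17. CKO bleomycin mouse 4 had 0 counts, which allows a level of up to 0.0357 CPM (3 counts, counting error only). Where the collagen VI genes were lower, in control bleomycin mice 3 and 4, Col8a1 was higher than in mice 1 and 2 of the same group. Mice 1 and 2 of that group are labelled female and mice 3 and 4 male, and mouse 2 is 1 of the libraries whose sex genes go against the label. Mice 3 and 4 were also the most alike pair of libraries within any group, and the animal numbers in their labels are consecutive. The labels do not say whether these mice are related, and how far they are independent was not tested.

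The FACIT genes were led by Col12a1 (chromosome 9, minus strand, 79598991 to 79718831), the most abundant member per kb of transcript in the control bleomycin mice, at 48.1 ± 9.24 CPM per kb (SD, n = 4). Its levels were 70.4, 2.04, 548 and 0.995 CPM in control PBS mice, 625, 629.8, 402 and 558 CPM in control bleomycin mice, 34.0, 52.2, 184, 7.70 and 10.3 CPM in CKO PBS mice, and 80.5, 438, 21.1 and 4.15 CPM in CKO bleomycin mice. The control bleomycin mice lay within 1.57-fold of each other, while the lowest and highest control PBS mice were 551-fold apart. Col14a1, whose collagen binds the fibril surface with decorin (chromosome 15, plus strand, 55307750 to 55520803), gave 2.85, 0.809, 21.8 and 1.03 CPM in control PBS, 20.2, 13.8, 56.2 and 50.4 CPM in control bleomycin, 0.482, 2.46, 15.8, 1.47 and 4.84 CPM in CKO PBS, and 3.96, 6.82, 4.52 and 0.750 CPM in CKO bleomycin mice. All CKO bleomycin mice were below all control bleomycin mice, and, as for Col8a1, control bleomycin mice 3 and 4 were above mice 1 and 2. Col16a1, a FACIT gene with 70 exons (chromosome 4, plus strand, 130047840 to 130099283), gave 5.76, 0.502, 33.3 and 0.223 CPM in control PBS, 51.6, 48.9, 29.4 and 29.2 CPM in control bleomycin, 0.679, 4.18, 15.3, 0.582 and 1.46 CPM in CKO PBS, and 5.95, 15.0, 2.25 and 0.178 CPM in CKO bleomycin mice. Its CKO bleomycin mice were also all below the control bleomycin mice. Col16a1 followed Col12a1 more closely than any other member pair, with a Spearman correlation of 0.966 over the 17 libraries.

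Of the multiplexin genes, Col15a1 followed the other members least closely. Col15a1 (chromosome 4, plus strand, 47208161 to 47313167) gave 3.11, 3.37, 29.5 and 5.96 CPM in control PBS, 34.8, 12.8, 3.25 and 2.54 CPM in control bleomycin, 15.4, 4.09, 6.36, 3.41 and 2.71 CPM in CKO PBS, and 2.29, 4.18, 6.11 and 5.95 CPM in CKO bleomycin mice. Control bleomycin mice 3 and 4 were among the lowest libraries for Col15a1, and all groups overlapped. Its Spearman correlation with the other members lay between -0.113, with Col8a1, and 0.510, with Col18a1, whereas Col18a1 followed Col12a1 with a correlation of 0.853. Col18a1 (chromosome 10, minus strand, 77052178 to 77166548) gave 8.96, 4.23, 58.4 and 2.38 CPM in control PBS, 33.1, 81.6, 16.7 and 15.2 CPM in control bleomycin, 20.04, 12.3, 18.5, 3.41 and 4.49 CPM in CKO PBS, and 7.64, 9.79, 5.06 and 5.27 CPM in CKO bleomycin mice. All 4 CKO bleomycin mice were below the lowest control bleomycin mouse, and were close together, within 1.94-fold. Col12a1, Col14a1, Col15a1 and Col18a1 each overlap genes on the opposite strand, and the libraries were stranded.

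Per kb of transcript, the control bleomycin means ran from Col12a1 (48.1 CPM per kb) through Col6a1 (22.3 ± 16.3), Col6a3 (19.1 ± 15.0), Col8a1 (18.4 ± 16.9), Col6a2 (9.69 ± 8.90), Col16a1 (7.64 ± 2.34), Col18a1 (6.55 ± 5.55) and Col14a1 (5.44 ± 3.30) to Col15a1 (2.58 ± 2.91; SD, n = 4 throughout). Col12a1 exceeded Col6a1 by more than the SD of either gene, and every later neighbouring pair in this order differed by less than the SD of either. In the control PBS mice the leading means were Col12a1 (13.5 ± 22.9) and Col6a1 (12.8 ± 23.5), each carried by mouse 3. In the CKO bleomycin mice Col12a1 again had the highest mean (11.8 ± 17.7), and Col14a1 the lowest (0.621 ± 0.387).

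The first comparison asks how the collagen genes differ between passaged cultures of injured and uninjured lungs in Ephb4 control mice. The cultures also differed in their summed fibroblast markers, at 633.5 to 958.9 CPM with bleomycin and 13.7 to 838.2 CPM (median 30.1) with PBS. All 9 members had positive log2 fold changes, with a median of 1.22 against -0.06 over the 10481 genes. No member passed an adjusted p of 0.05 in edgeR, and no gene of the table did (0.0%). Col8a1 had the highest value, at a log2 fold change of 4.78 (SE 1.63, 27.6-fold, adjusted p = 0.312). Its unadjusted p was 0.0103, and it was the 1 member below 0.05 before adjustment, where 6.28% of all genes were below it in that direction (658 genes). DESeq2 called Col8a1 (log2 fold change 4.78, adjusted p = 0.0335) and no other member, with 0.935% of all genes called higher, and gave no p for Col12a1. Over the alternatives Col8a1's adjusted p ran from 0.0320 to 1.00. Col8a1 was also the 1 member whose control PBS and control bleomycin mice did not overlap (5.72% of all genes, in that direction). It was above 10 CPM in 4 control bleomycin and 2 CKO bleomycin libraries and in 0 PBS libraries of either genotype. Col8a1 thus passed the filter only through bleomycin libraries, and its values here are not independent of that filter. Col14a1 followed at 2.40 (SE 1.14), then Col16a1 at 2.0 (SE 1.41) and Col12a1 at 1.83 (SE 1.58). The collagen VI genes lay between 0.80 and 1.22 with SEs between 1.48 and 1.66, and the multiplexins at 0.99 (Col18a1, SE 0.87) and 0.35 (Col15a1, SE 0.87).

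Control PBS mouse 3 set much of this outcome. It held 197 CPM of Col6a1 and 548 CPM of Col12a1, and a mean log2 CPM of the 8 fibroblast markers that passed the filter of 4.71, against -1.16, -0.55 and 1.62 in the other control PBS mice and 5.45 to 5.83 in the control bleomycin mice. Without it the median of the members was 4.52, and 8 of the 9 had an unadjusted p below 0.05, beside 12.7% of all genes higher at that threshold in the same fit. Col6a3 then stood at 6.28, Col6a2 at 5.47, Col12a1 at 4.54 and Col6a1 at 4.45, and Col15a1 at 1.72 was the exception. The adjusted p of the members was still between 0.0692 (Col14a1) and 0.224 (Col15a1), so that no member passed. With the fibroblast marker level as a covariate the median was -0.21 and 3 of 9 values were positive. All 4 control bleomycin mice and 1 of the 4 control PBS mice are of number series 12 (the leading digits of the animal number), and with number series as a covariate the median was 2.11 with 9 of 9 positive. The marker level and the collagen genes were measured in the same libraries, and what sets either was not tested.

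**Figure D3:**
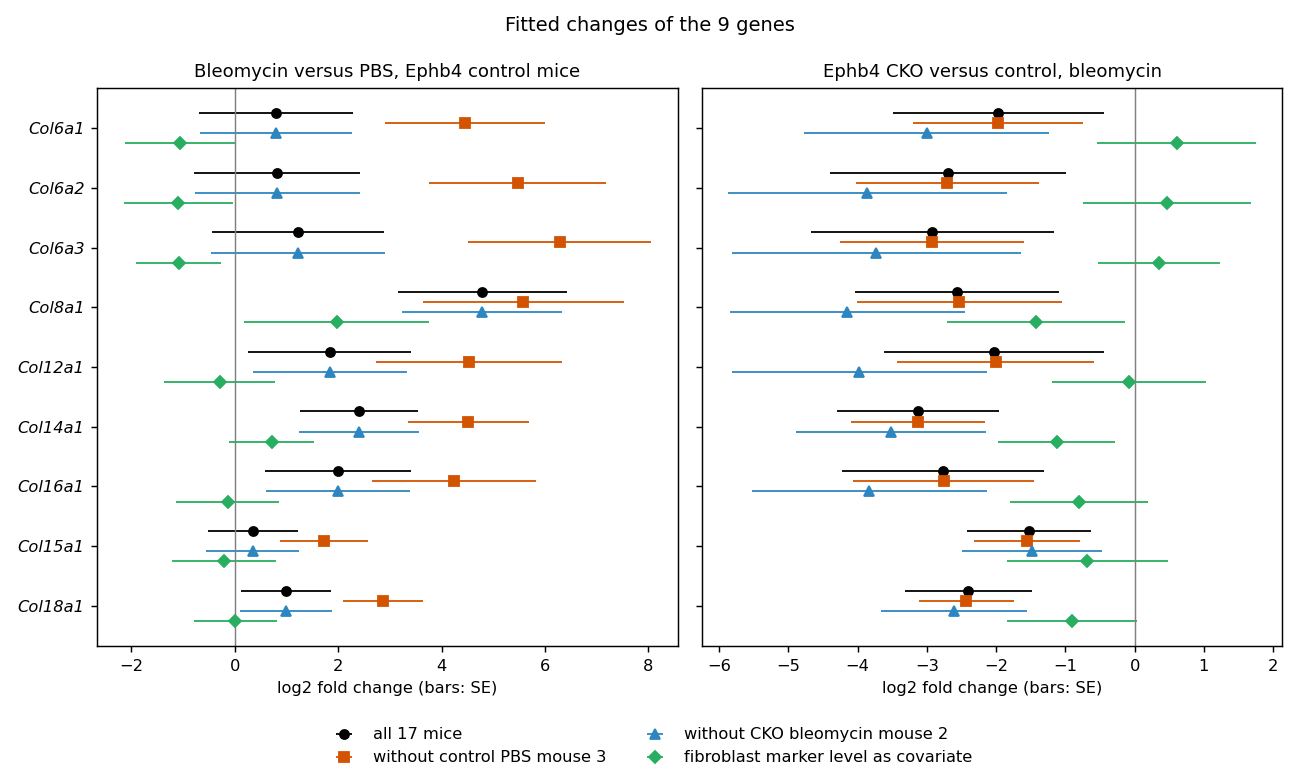
Fitted log2 fold change of each gene with its SE from edgeR, for bleomycin against PBS in the control mice (left) and Ephb4 CKO versus control after bleomycin (right), with all 17 mice, without 1 named mouse, and with the mean level of the fibroblast markers as a covariate. Leaving out control PBS mouse 3 moves the median on the left from 1.22 to 4.52, and the covariate moves the medians to -0.21 and -0.68.

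Setting Ephb4 CKO against control mice after bleomycin addresses whether collagen RNA differs between passaged cultures of injured lungs of the 2 genotypes. It shares the control bleomycin mice with the first comparison, so the 2 sets of values are not independent. All 9 log2 fold changes were negative, with a median of -2.57 against 0.01 over all genes. In edgeR no member and no gene of the table passed an adjusted p of 0.05 (0.0%). Col14a1 stood at -3.13 (SE 1.176, unadjusted p = 0.0178, adjusted p = 0.218) and Col18a1 at -2.40 (SE 0.91, unadjusted p = 0.0189, adjusted p = 0.218), and these 2 were below an unadjusted p of 0.05, as were 9.18% of all genes in that direction. Col6a3 at -2.92 (SE 1.76), Col16a1 at -2.77 (SE 1.46), Col6a2 at -2.70 (SE 1.70), Col8a1 at -2.57 (SE 1.48), Col12a1 at -2.03 (SE 1.59), Col6a1 at -1.97 (SE 1.53) and Col15a1 at -1.53 (SE 0.89) had an unadjusted p above 0.05. Col6a3, Col14a1, Col16a1 and Col18a1 did not overlap between the groups, which makes 4 of 9 members beside 12.2% of all genes in that direction. DESeq2 called no member (2.42% of all genes called lower), with 4 members below an unadjusted p of 0.05, beside 12.3% of all genes in that direction. limma voom with sample quality weights called 6 members lower (Col6a1, Col6a3, Col8a1, Col12a1, Col14a1 and Col16a1), in a fit that called 23.2% of all genes lower.

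Among the CKO bleomycin mice, mouse 2 was highest for the 3 collagen VI genes, Col8a1, Col12a1, Col14a1, Col16a1 and Col18a1. It also had the highest fibroblast marker level, at 5.20, against 3.20, 1.61 and -1.27 in mice 1, 3 and 4. Without it the median was -3.73, with 8 of 9 members without overlap, beside 17.5% of all genes. Without the 3 libraries whose sex genes go against the labels the median was -4.04, and 8 of 9 members did not overlap, from 3 control and 2 CKO mice, beside 23.2% of all genes. That set compares control mice of number series 12 with CKO mice of number series 11, so that genotype and number series cannot be told apart in it. In the animals of number series 12 alone, which holds 4 control and 2 CKO bleomycin mice, the median was -1.97 with 4 members below an unadjusted p of 0.05, beside 6.55% of all genes in that direction. Those 2 CKO mice are mice 1 and 2, whose sex genes go against the labels. The summed macrophage markers ran from 20360 to 43150 CPM in the CKO bleomycin mice and from 1301 to 19330 CPM in the control bleomycin mice. With the macrophage marker level as a covariate the median was -1.98 with 8 of 9 values negative, and Col15a1 stood at 0.06. With the fibroblast marker level as a covariate the median was -0.68, and the values of the collagen VI genes were 0.61 (Col6a1), 0.47 (Col6a2) and 0.36 (Col6a3).

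**Figure D4:**
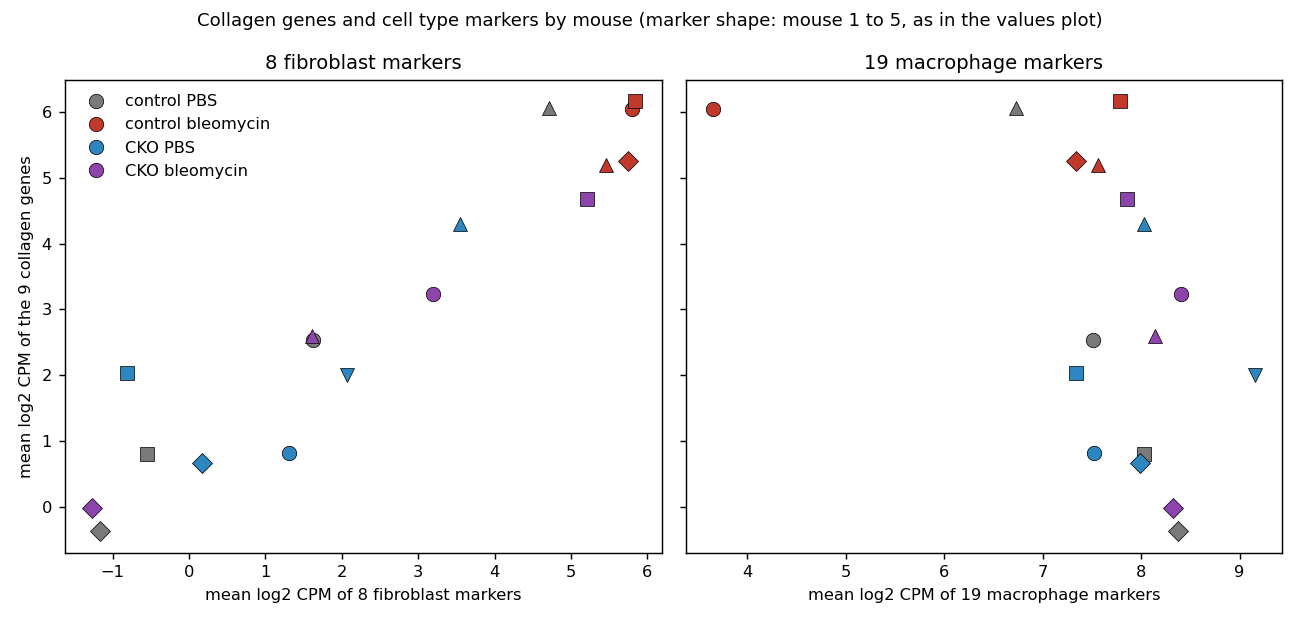
Mean log2 CPM of the 9 collagen genes in each mouse against that of the fibroblast markers (left) and the macrophage markers (right) that passed the filter. The 4 control bleomycin mice sit between 5.45 and 5.83 on the fibroblast marker axis, control PBS mouse 3 at 4.71 and CKO bleomycin mouse 2 at 5.20, and the remaining 11 mice between -1.27 and 3.54.

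Without injury, the 9 log2 fold changes of Ephb4 CKO against control mice were all negative, with a median of -1.16, and no member was below an unadjusted p of 0.05 (1.99% of all genes in either direction). Col6a1, Col6a2 and Col6a3 stood at -2.39 (SE 1.43), -2.83 (SE 1.58) and -3.09 (SE 1.63), beside -1.97, -2.70 and -2.92 after bleomycin. The other members ran from -1.43 (Col12a1) to -0.22 (Col8a1). DESeq2 had 2 members lower at an unadjusted p below 0.05, beside 110 of all 10481 genes. In edgeR without control PBS mouse 3 all 9 values were positive, with a median of 1.22, so that 1 mouse set the direction. Bleomycin against PBS within the Ephb4 CKO mice gave a median of 0.95, with 6 positive and 3 negative values and no member below an unadjusted p of 0.05 (0.964% of all genes). With each mouse left out that median ran from -0.42, without CKO bleomycin mouse 2, to 2.38, without CKO PBS mouse 3. In the animals of number series 12 alone, 2 CKO mice with each treatment, it was 2.60 with 6 members below an unadjusted p of 0.05, beside 3.48% of all genes higher at that threshold. Both of the bleomycin mice in that fit are those whose sex genes go against the labels. The interaction of genotype and bleomycin had a median of -0.81, with 3 positive values, all of collagen VI, and 6 negative, and no member was below an unadjusted p of 0.05 (3.46% of all genes). Without control PBS mouse 3 its median was -3.62 with 9 of 9 negative. In all 3 comparisons no member and no gene of the table passed the adjusted threshold (0.0%).

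To see whether the members moved by unequal amounts within the same libraries, each was expressed as a log2 ratio to Col6a1 and tested over mice with a 2-sided exact permutation test, 8 genes in 2 comparisons. None of the 16 passed, with the lowest adjusted p at 0.366, and 4 mice against 4 cannot give an exact p below 0.0286. For bleomycin in control mice the Col6a3 ratio had a difference of 1.29 (exact permutation p = 0.0571), from -0.19 ± 1.00 to 1.10 ± 0.29 (SD, n = 4). The Col15a1 ratio had a difference of -2.81 (exact permutation p = 0.0571), from -0.39 ± 2.40 to -3.20 ± 0.91 (SD, n = 4). The Col8a1 ratio was -0.25 ± 2.84 (SD, n = 4) in control bleomycin mice, with mice 1 and 2 at the low end (-2.97 at the lowest) and mice 3 and 4 at the high end (2.44 at the highest). The Col6a2 ratio was -1.74 ± 0.96, -1.55 ± 0.48 and -1.86 ± 0.54 (SD, n = 4) in the control PBS, control bleomycin and CKO bleomycin mice.

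**Figure D5:**
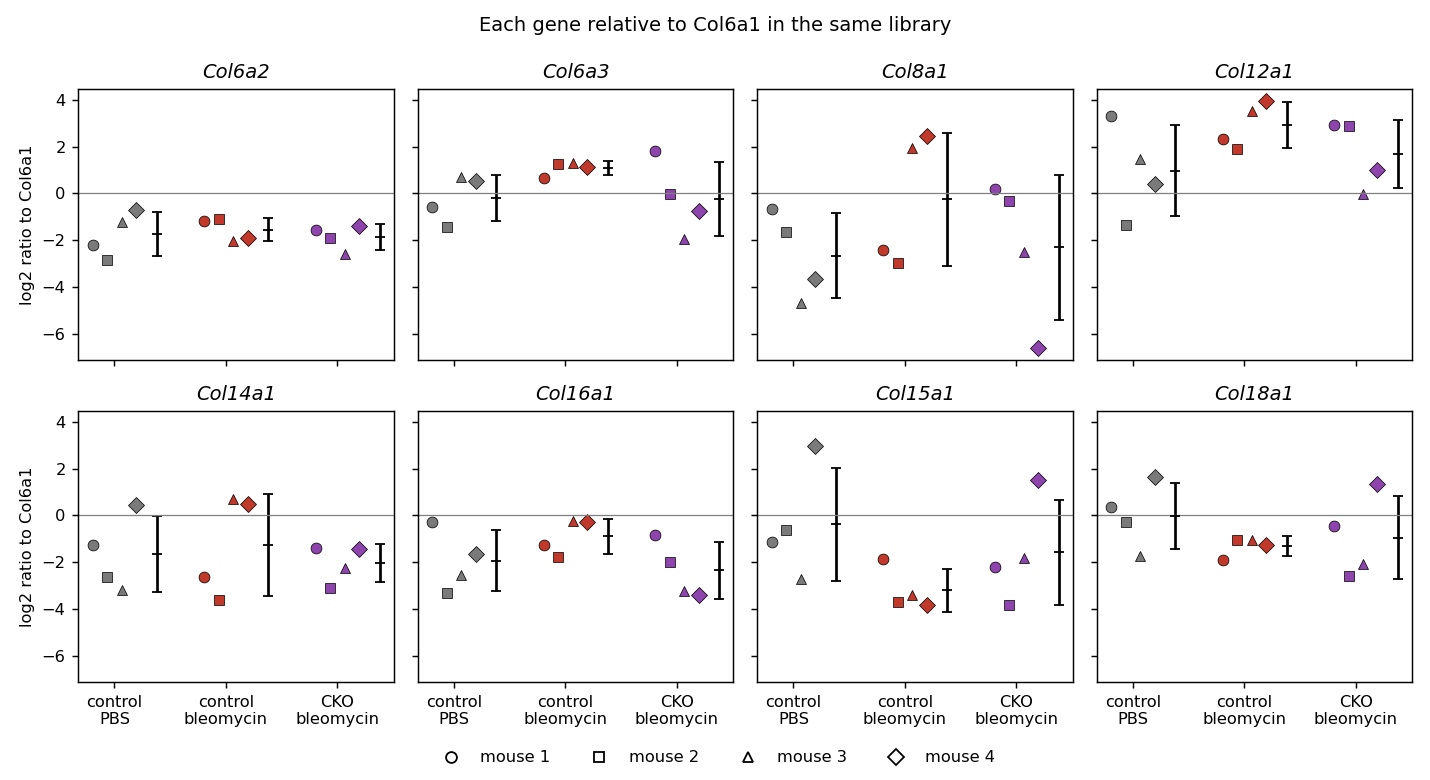
Log2 ratio of each gene to Col6a1 in the same library for the control PBS, control bleomycin and CKO bleomycin mice, with the mean and SD beside the points. The mean ratio of Col6a2 lies at -1.74, -1.55 and -1.86 in the 3 groups, and Col8a1 and Col14a1 split the control bleomycin mice into mice 1 and 2 (low) and mice 3 and 4 (high).

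Of 18 other non-fibrillar collagen chain genes in the table, 2 passed the filter on low counts, Col7a1 (anchoring fibrils) and Col23a1 (a transmembrane collagen), and 11 stayed under 1 CPM in every library, including Col6a4, Col6a5 and Col6a6 of the later collagen VI chains. Col7a1 had a log2 fold change of -3.37 (SE 1.43, adjusted p = 0.228) in CKO against control mice after bleomycin, and Col23a1 one of -1.66 (SE 1.88). Among 16 binding partners and receptors of these collagens, 13 passed the filter, 12 had a positive value for bleomycin in control mice and 11 a negative value for CKO after bleomycin, with list medians of 1.12 and -1.178 and no gene called. Itgb1, the β1 integrin chain, stood at -1.003 (SE 0.31, unadjusted p = 0.00507) in CKO against control mice after bleomycin. It was the 1 gene of the list below 0.05, beside 9.18% of all genes in that direction. Fn1 (fibronectin) stood at 1.45 and -2.07 in these 2 comparisons, and Bgn (biglycan, which binds collagen VI) at 2.38 and -2.22.

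Genes that fold, modify and export collagen chains were examined beside them. In CKO against control mice after bleomycin 9 of the 14 measured were lower at an unadjusted p below 0.05, beside 9.18% of all genes, with a list median of -1.08. For bleomycin in control mice 4 of 14 were higher at that threshold, beside 6.28% of all genes, with a median of 0.82. None was called after adjustment. Serpinh1, the collagen chaperone HSP47, stood at -3.21 (SE 1.17, adjusted p = 0.218) in CKO mice after bleomycin and at 2.42 (SE 1.13) for bleomycin in control mice. P4hb, a subunit of prolyl 4-hydroxylase, stood at -0.92 (SE 0.26) and 0.55 (SE 0.26), and Colgalt1, which adds galactose to hydroxylysine, at 0.38 (SE 0.23) and -0.35 (SE 0.23). Of 11 measured proteases known to cleave matrix collagens or to process collagen VI and XVIII, 5 had positive and 6 negative values in CKO against control mice after bleomycin, with a median of -0.68, and the median for bleomycin in control mice was 0.55. At an unadjusted p below 0.05, 2 of the 11 were higher in CKO mice after bleomycin, beside 1157 of all 10481 genes. They were the macrophage elastase gene Mmp12 (2.89, SE 1.03) and the lysosomal cathepsin gene Ctsb (1.34, SE 0.61). The 2 lower at that threshold, beside 9.18% of all genes, were the procollagen C-proteinase gene Bmp1 (-2.66, SE 1.15) and the gelatinase gene Mmp2 (-1.87, SE 0.77). Ctsl, another cathepsin gene, stood at 1.22 (SE 0.75, unadjusted p = 0.122).

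The 8 fibroblast markers that passed the filter had a median of 2.40 for bleomycin in control mice (8 positive) and -2.25 for CKO after bleomycin (7 negative), beside -0.86 and 1.08 for the 19 macrophage markers (16 negative and 19 positive). Pdgfra stood at 0.87 and -1.82, Cdh11 at 1.98 and -3.09, and Pdgfrb at 2.49 and -2.23 in these comparisons, all with an unadjusted p above 0.05. At an unadjusted p below 0.05, 2 of the 8 fibroblast markers were higher for bleomycin in control mice, beside 6.28% of all genes. For CKO after bleomycin 1 was lower, beside 9.18%. Of the macrophage markers, Lyz2 stood at -1.17 and 1.20, Cd68 at -1.46 and 1.74, and Itgax at -1.73 and 1.94. At that threshold 2 of the 19 were lower for bleomycin in control mice, beside 836 of all 10481 genes. For CKO after bleomycin 5 were higher, beside 1157 genes. Itgax was among both sets and Cd68 among the 5. Of 6 smooth muscle and pericyte markers, 4 were higher at an unadjusted p below 0.05 for bleomycin in control mice, beside 6.28% of all genes. Cnn1 (4.14, SE 1.84) and Actg2 (4.72, SE 1.54) were among these 4, Mcam stood at -0.59 (SE 1.02), and the list median was 3.71. In CKO against control mice after bleomycin all 6 values were negative, with a median of -2.16 and none below an unadjusted p of 0.05, and Cnn1 stood at -2.20 and Actg2 at -2.49. Endothelial markers (8 genes, among them Vwf, Cdh5 and Pecam1) had medians of -0.19 and -0.97, and epithelial markers (7 genes, among them Krt8, Krt18 and Cdh1) -0.63 and 0.37, with none below 0.05. Msln was the 1 mesothelial marker measured (-1.37 and -0.35), and none of the 7 lymphocyte markers passed the filter.

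Over the 17 libraries, the genes outside the members whose log2 CPM was most like the mean of Col6a1, Col6a2 and Col6a3 were Col3a1 (a fibrillar collagen, Spearman correlation 0.961), Mrc2 (a collagen receptor of fibroblasts, 0.958), the fibroblast marker Pdgfra (0.953), Dkk3 (0.949) and Nt5dc2 (0.944). Col3a1 ran from 0.711 to 4298 CPM and Mrc2 from 0.112 to 73.4 CPM over the libraries.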

How the data were processed

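Total RNA-Seq was performed on passaged lung cultures of 17 mice, labelled as fibroblasts, 1 library per mouse, and groups were taken from the sample labels. The authors trimmed reads with Cutadapt, aligned them to GRCm38 with HISAT2 (version 2.1.0 in the submitters' notes) in stranded mode, estimated the abundance of reference transcripts with StringTie and deposited whole-number counts per gene derived from coverage and the read length of 75 bp, so that a count depends on how coverage was split between overlapping transcripts. The deposited counts were not normalized. The label divides sequencing into 2 runs without naming the libraries of each.

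CPM was calculated from the counts with TMM-scaled libraries. Genes above 10 CPM in at least 2 libraries were tested with edgeR 4.0.16 (quasi-likelihood, R 4.3.3) on all 17 libraries with 1 mean per group and p-values adjusted by Benjamini-Hochberg across the 10481 tested genes, at an adjusted p of 0.05. Each SE is the log2 fold change divided by the root of its F. Log2 CPM used a prior count of 2. Ratios to Col6a1 were compared with 2-sided exact permutation tests. DESeq2 1.42.0, limma 3.58.1, other normalizations, filters, covariates and sets of mice were alternatives. On simulated counts of the comparison of bleomycin with PBS in Ephb4 control mice (10481 genes), edgeR called 168 of 200 genes changed by a log2 fold change of 3, with 10 false calls, and DESeq2 called 183 with 64 false calls. The simulated counts were drawn independently for each gene and held no cell mixture shared within a library. These rates therefore cannot be taken as the power for the members in the real libraries, where edgeR called no gene.

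The members, the gene lists and the tests were chosen with earlier results of these data known. Besides the members, the text names the 3 most abundant measured genes of each list and the 5 genes most like collagen VI across libraries. Gene names given beyond this rule were chosen after their values were seen. Positions come from GENCODE M21 and promoter windows from RefSeq, both on GRCm38. The closest libraries of a group differed by far more than sampling noise (chi-square per degree of freedom of 117 for control bleomycin mice 3 and 4). The next closest pair stood at 681 (control bleomycin mice 2 and 4), so that mice 3 and 4 were unusually alike. Floors cover counting error only. Mouse numbers follow the accession order and pair no mice.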

Additional observations from a re-analysis of the deposited data

How the results depend on the processing

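No paired analysis was possible because the labels give the mice no replicate numbers and each mouse is in 1 group. The counts of members passing the adjusted threshold were 0 in all 5 comparisons with edgeR under every normalization, filter, covariate and set of mice tried. In bleomycin against PBS in control mice DESeq2 called 1 member, without a batch term and with the 2 sorted runs of table columns as a covariate. In CKO against control mice after bleomycin limma voom with sample quality weights called 6.

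For bleomycin in control mice the members' median was 3.44 with limma voom, and 0.56 to 4.52 with each mouse left out. The members below an unadjusted p of 0.05 numbered 2 (DESeq2, filterByExpr, no filter, sorted runs in edgeR), 3 (voom with weights, sorted runs in DESeq2), 5 (voom), 0 (fibroblast markers as covariate) and 1 to 8 with each mouse left out (8 without control PBS mouse 3, and 2 without control bleomycin mouse 2, CKO PBS mouse 1 or 3 or CKO bleomycin mouse 4). Of all 10481 genes, 861 were higher at that threshold with DESeq2, 1053 with weighted voom, 1162 with voom and 1330 without control PBS mouse 3. Sorted runs gave 698 in edgeR and 983 in DESeq2, and the fibroblast covariate gave 160. With filterByExpr 1134 of 21009 genes were higher, and with no filter 1561 of 35414. Without control bleomycin mouse 2, CKO PBS mouse 1, CKO PBS mouse 3 and CKO bleomycin mouse 4 the numbers were 580, 717, 677 and 649. Positive values numbered 3 with the fibroblast covariate. Members without overlap numbered 1 to 8 with each mouse left out (8 without control PBS mouse 3, 2 without control bleomycin mouse 3). The share of all genes without overlap was not computed for these sets of mice, so these counts have no background beside them. For CKO after bleomycin the median was -4.04 without the 3 libraries whose sex genes go against the labels, -0.68 with the fibroblast covariate and -3.73 to -2.05 with each mouse left out. Members below an unadjusted p of 0.05 numbered 4 (DESeq2, voom, number series 12), 7 (voom with weights), 5 (the compared groups alone), 1 (macrophage markers as covariate), 0 (fibroblast covariate) and 1 to 5 with each mouse left out (1 without control bleomycin mouse 2, 5 without CKO bleomycin mouse 2). Members without overlap numbered 8 without the 3 libraries and 4 to 8 with each mouse left out. For CKO after PBS the median ran from -2.56 to 1.22 and negative values from 0 to 9 with each mouse left out, and 4 were negative with the fibroblast covariate. For bleomycin in CKO mice the median was -0.96 without the 3 libraries and -0.42 to 2.38 with each mouse left out. In number series 12 alone it was 2.60, with 6 members below an unadjusted p of 0.05, beside 3.48% of all genes higher. The interaction's median ran from -3.62 to -0.22 with each mouse left out. Why these values moved was not tested.

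With the fibroblast covariate the sign turned for Col6a1 (-1.06), Col6a2 (-1.10), Col6a3 (-1.09), Col12a1 (-0.30), Col16a1 (-0.14) and Col15a1 (-0.21) in the first comparison and for Col6a1 (0.61), Col6a2 (0.47) and Col6a3 (0.36) in the second. Col15a1 turned in the first with weighted voom (-0.79), the macrophage covariate (-0.54) and without control bleomycin mouse 1 (-0.72, in a range up to 1.72 with each mouse left out), and in the second with the macrophage covariate (0.062). Relative to Col6a1, with each mouse left out, Col6a2 ran from -0.18 to 0.54 and Col14a1 from -0.26 to 1.17 in the first comparison, and Col18a1 from -0.39 to 0.92 in the second. Depth limits the lowest values most: Col8a1 had 0 counts in 1 library, while the other 8 members had counts in every library. Number series 12 alone gave no value for bleomycin in control mice or the interaction, and the compared groups alone none for the interaction.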
